A study of Homo sapiens with 6 samples.

Results

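Aldehyde dehydrogenase (ALDH) transcripts were followed here in 2 sorted fractions of one human breast epithelial line. The 10 members, ALDH1A1, ALDH1A3, ALDH1B1, ALDH1L2, ALDH2, ALDH3A2, ALDH6A1, ALDH7A1, ALDH9A1 and ALDH18A1, were taken by gene symbol through the GENCODE 29 annotation, out of 58381 gene IDs in the deposited table. All 10 were found, and 8 passed the filter of a mean of at least 10 normalized counts. ALDH1A1 and ALDH2 did not. The cells were MCF10AT1, a line derived from MCF10A that carries an activated HRAS, so both fractions share that oncogene and the same medium with horse serum, insulin, EGF, cholera toxin and hydrocortisone. The CD24low fraction was CD24low and CD44high, the CD24high fraction was CD24high and CD44-positive, and each had 3 libraries of rRNA-depleted total RNA. The descriptions name CD24low libraries CSC and CD24high libraries Bulk. No label states whether the 3 replicates of a fraction were separate cultures, so p-values measure the spread between libraries, which may be technical.

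ALDH enzymes oxidise aldehydes to carboxylic acids with NAD or NADP. The ALDH1A enzymes make retinoic acid from retinaldehyde, and other family members work in the mitochondrion or at membranes on aldehydes from folate, amino acids, choline and lipids. High ALDH activity, measured in living cells with a fluorescent substrate, is a widely used mark of normal and malignant breast stem cells, and so is the CD24low, CD44high surface pattern. The activity was not measured in these files. The comparison of the fractions asks how the transcripts behind such activity are spread over cells sorted on the surface pattern.

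The libraries held 16691162 to 27293177 recovered reads, and 1 read was worth 0.83 to 1.46 normalized counts. CD24 (4018 ± 1681 normalized counts in CD24high and 762 ± 542 in CD24low, SD, n = 3) was lower in every CD24low library, while CD44 (8475 ± 562 and 7547 ± 716) overlapped between the groups. Reads of rRNA took over 5% of CD24high replicate 3 and CD24low replicates 1 and 2 (7.07% to 10.2%) and 1.30% to 2.27% of the other libraries. A principal component analysis put CD24low replicate 3 (3.83 on its first axis) nearer to the CD24high libraries (-34.2 to -15.9) than CD24low replicates 1 and 2 (22.9 and 55.0) were. Each difference is the mean log2 (normalized count + 1) of CD24low less that of CD24high, positive where CD24low is higher. Differences are also given within libraries of low rRNA share (CD24low replicate 3 and CD24high replicates 1 and 2) and of high share (CD24low replicates 1 and 2 and CD24high replicate 3). Each of those has 1 library on a side and no test.

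The first question was which ALDH genes these cells express. Per kilobase of the principal transcript, over all 6 libraries, ALDH3A2 (642 ± 66.8 normalized counts per kb, SD over libraries), the fatty aldehyde dehydrogenase of the endoplasmic reticulum, stood first. ALDH18A1 (633 ± 47.3), which makes the precursor of proline, ALDH1B1 (624 ± 65.4), a mitochondrial enzyme of acetaldehyde and retinaldehyde, and ALDH1A3 (544 ± 235) followed. ALDH9A1 (380 ± 51.0), which acts on aminoaldehydes of carnitine synthesis, came next. Neighbours in this order of members had overlapping ranges, also from ALDH9A1 to ALDH7A1 (225 ± 53.7). ALDH3A2, ALDH18A1 and ALDH1B1 lay above ALDH9A1 in every library (at least 520 against at most 419 per kb), while the range of ALDH1A3 overlapped those of all 4. ALDH6A1 (30.2 ± 8.53) and ALDH1L2 (28.5 ± 10.7) lay below every ALDH7A1 library and overlapped each other. ALDH1A1 (0.78 ± 0.63 per kb) and ALDH2 (0.015 ± 0.038) lay below every library of the 8 tested members. With the length of all merged exons instead, the same 5 members led, ALDH1B1 first at 606 per kb, and ALDH7A1, whose annotated exons are long, stood at 62.2.

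**Figure D1:**
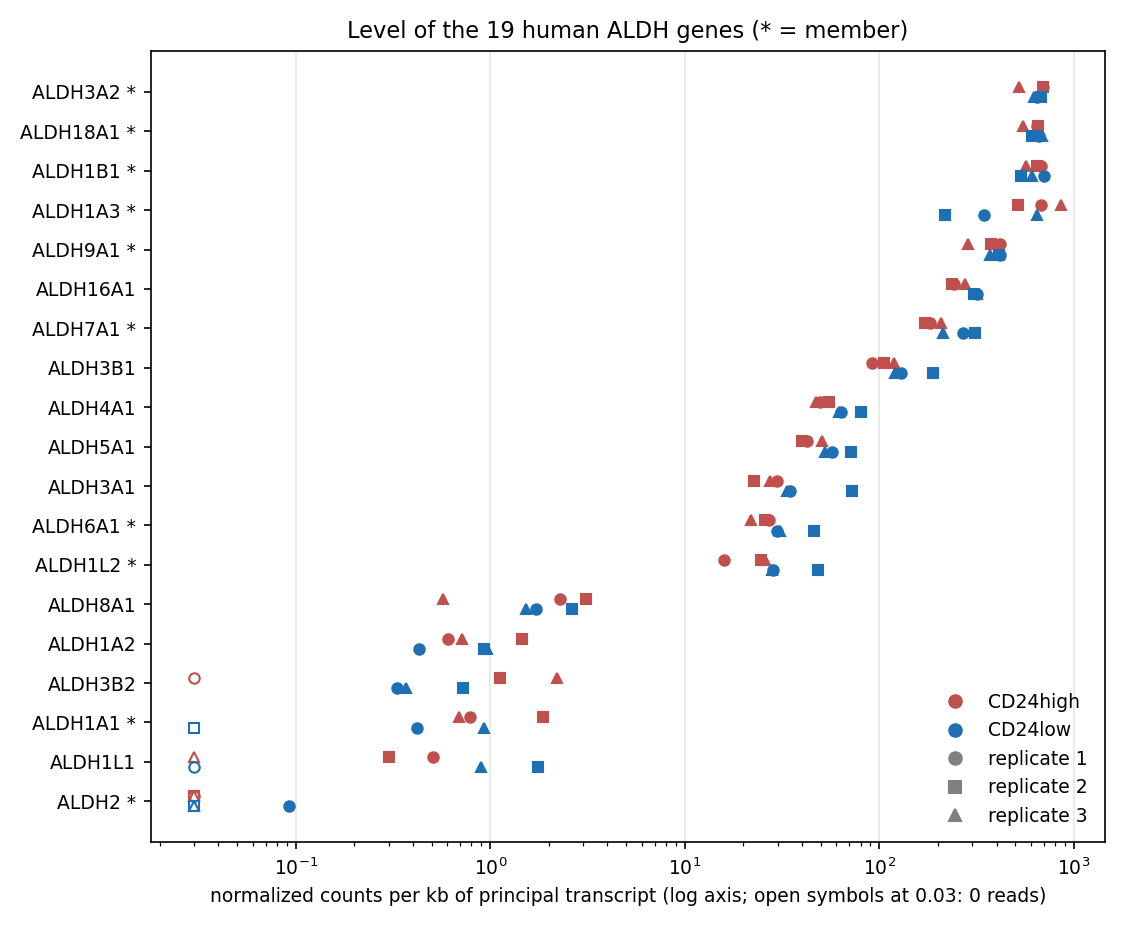
Normalized counts per kilobase of the principal transcript (x axis, log scale) for the 19 human ALDH genes (y axis), 1 symbol per library, coloured by fraction and shaped by replicate, with open symbols for 0 reads. ALDH1A3 spans 217 to 862 per kb, and ALDH1A1 and ALDH2 lie at or below 1.88 per kb.

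ALDH1A1 is the family member most often named in stem cell work, and it was near the limit of detection in either fraction. ALDH1A1 (ENSG00000165092.12, chromosome 9, 72900662 to 73080442, minus strand, hg38) had 2, 4 and 1 reads in the 3 CD24high libraries and 1, 0 and 2 reads in the 3 CD24low libraries, in order of replicate number. These are 1.66, 3.95 and 1.46 normalized counts against 0.88, 0 and 1.96. Since 0 reads in a library allow up to 3, which is 2.49 to 4.38 normalized counts (counting error only), no difference was detectable at this depth. No stretch of 50 bases of its principal transcript (2058 windows) occurred in a transcript of another gene. ALDH1A1 made up at most 0.052% of the summed per-kb ALDH level in a library. ALDH1A3 made up 6.05% to 24.2%.

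ALDH2, the main mitochondrial acetaldehyde enzyme of most tissues, was not detected beyond 1 read. ALDH2 (ENSG00000111275.12, chromosome 12, 111766887 to 111817529, plus strand) had that read in CD24low replicate 1 and 0 reads in the other 5 libraries. AC002996.1, an annotated gene on the same strand that shares 680 of its 784 exonic bases with ALDH2, had 1.96 to 13.2 normalized counts. Of the 9520 windows of 50 bases in the principal ALDH2 transcript, 9.47% occurred in transcripts of other genes.

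The start regions of a nearly silent and an abundant member are shown, a pair picked because their base makeup differs. RefSeq promoter windows on GRCh38.p14 were matched for 8 of the 10 members (9 windows, none for ALDH1L2 and ALDH2). The 250 bases before each RefSeq start were read. Some windows lay in annotated exons of their gene and are not purely upstream sequence. These were all 250 bases for ALDH1A3 and ALDH9A1, 225 for 1 ALDH3A2 window and 199 for ALDH7A1. The other windows held at most 40 such bases. The stretches printed lie outside the annotated exons of their gene, at chr9:72953057-72953303 (minus strand) for ALDH1A1 and chr10:95656712-95656961 (minus strand) for ALDH18A1, 5′ to 3′, with CpG dinucleotides in capitals.
ALDH1A1: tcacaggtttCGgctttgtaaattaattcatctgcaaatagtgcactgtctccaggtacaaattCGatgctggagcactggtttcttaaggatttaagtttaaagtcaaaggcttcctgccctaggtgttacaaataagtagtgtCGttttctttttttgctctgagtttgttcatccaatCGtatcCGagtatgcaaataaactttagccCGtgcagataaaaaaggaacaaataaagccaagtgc
ALDH18A1: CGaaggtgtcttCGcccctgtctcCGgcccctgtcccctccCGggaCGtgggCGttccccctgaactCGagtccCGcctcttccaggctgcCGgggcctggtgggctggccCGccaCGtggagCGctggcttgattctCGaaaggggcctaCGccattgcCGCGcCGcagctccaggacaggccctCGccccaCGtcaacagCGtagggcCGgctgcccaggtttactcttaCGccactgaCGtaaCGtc
The ALDH1A1 window held 6 CpG dinucleotides and 38.4% G and C, the lowest of the 9 on both measures, and the ALDH18A1 window held 24 and 68.8%. The ALDH1A3 window held the most, 38 CpG and 82.4% G and C, more CpG than 96.7% of all 35116 windows of that length, whose median was 11. ALDH3A2, first by mean per kb of the principal transcript, had a window with 9 CpG and 55.6% G and C and another with 22 and 73.2%. The ALDH6A1 and ALDH7A1 windows held 11 CpG each, that of ALDH1B1 23 and that of ALDH9A1 21. The sequence TGTGGT, the core bound by RUNX factors, was searched on both strands and occurred in 1 of the 9 windows, that of ALDH9A1, and in 11.0% of all windows. These are descriptions of sequence, and binding and methylation were not measured here. A link between base makeup and transcript level was not tested.

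ALDH1A3 had the largest difference of the 8 tested members, lower in CD24low, and its groups overlapped through 1 CD24low library. ALDH1A3 (ENSG00000184254.16, chromosome 15, 100877714 to 100916626, plus strand) encodes the retinaldehyde dehydrogenase that is abundant in many breast cancer lines. It had 2655, 2033 and 3383 normalized counts in CD24high replicates 1, 2 and 3, against 1357, 850 and 2536 in the same order in CD24low. CD24low replicates 1 and 2 lay below every CD24high library, and CD24low replicate 3 lay within the CD24high range. The means were 2690 ± 675 and 1581 ± 865 (SD, n = 3), a log2 difference of -0.88 (SE 0.34, 95% interval -1.63 to -0.13). With limma the unadjusted p was 0.027 and the adjusted p over all genes 0.30, so ALDH1A3 did not pass. DESeq2's adjusted p was 0.56 and edgeR's 0.36. It was 0.13 among the libraries with little rRNA and -1.65 among those with more. Without CD24low replicate 3 it was -1.29 and passed (limma adjusted p = 0.030), as 2.28% of all tested genes then did. Without CD24low replicate 2 it was -0.50 (limma adjusted p = 0.65). Blocking on the replicate number gave a limma adjusted p of 0.0050, where 4.46% of all tested genes passed; over all alternatives it ran from 0.0050 to 0.65. In bulk RNA, fewer cells with a transcript and less of it per cell cannot be told apart.

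The share of ALDH1A3 in the summed per-kb level of all 19 ALDH genes was 17.8%, 14.5% and 24.2% in CD24high replicates 1, 2 and 3, and 9.35%, 6.05% and 17.1% in the CD24low replicates. The groups overlapped through CD24low replicate 3 here too. Of the 8 mammary epithelial markers, 5 had the order of ALDH1A3 within CD24low (replicate 3 highest, replicate 2 lowest), and KRT14, KRT17 and TP63 had another. The share of all tested genes with that order was not counted, so the 5 cannot be set against it. On the first principal component CD24low replicates 3, 1 and 2 also stood in that sequence (3.83, 22.9 and 55.0). EPCAM, one of the 5, had 2446, 1638 and 3473 normalized counts in replicates 1, 2 and 3, and the sort marker CD24 had 588, 329 and 1370. Their part in the ALDH1A3 difference was not tested. The antisense gene AC015712.2, which shares 1585 exonic bases with ALDH1A3, had 30.7 to 45.1 normalized counts. The libraries were strand-specific, but whether the counting used strand is not given in the sources used here, so the split of reads within such pairs is uncertain. Among 11469 other genes whose mean reached 100 normalized counts, the most similar log2 patterns over the 6 libraries were those of RTKN2 (Pearson r = 0.997), AC015712.5 (0.996) and LPAR2 (0.992), as a description with no test. AC015712.5 overlaps ALDH1A3 on the same strand by 63 exonic bases and had 6.07% to 6.80% of its normalized counts in each library.

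**Figure D2:**
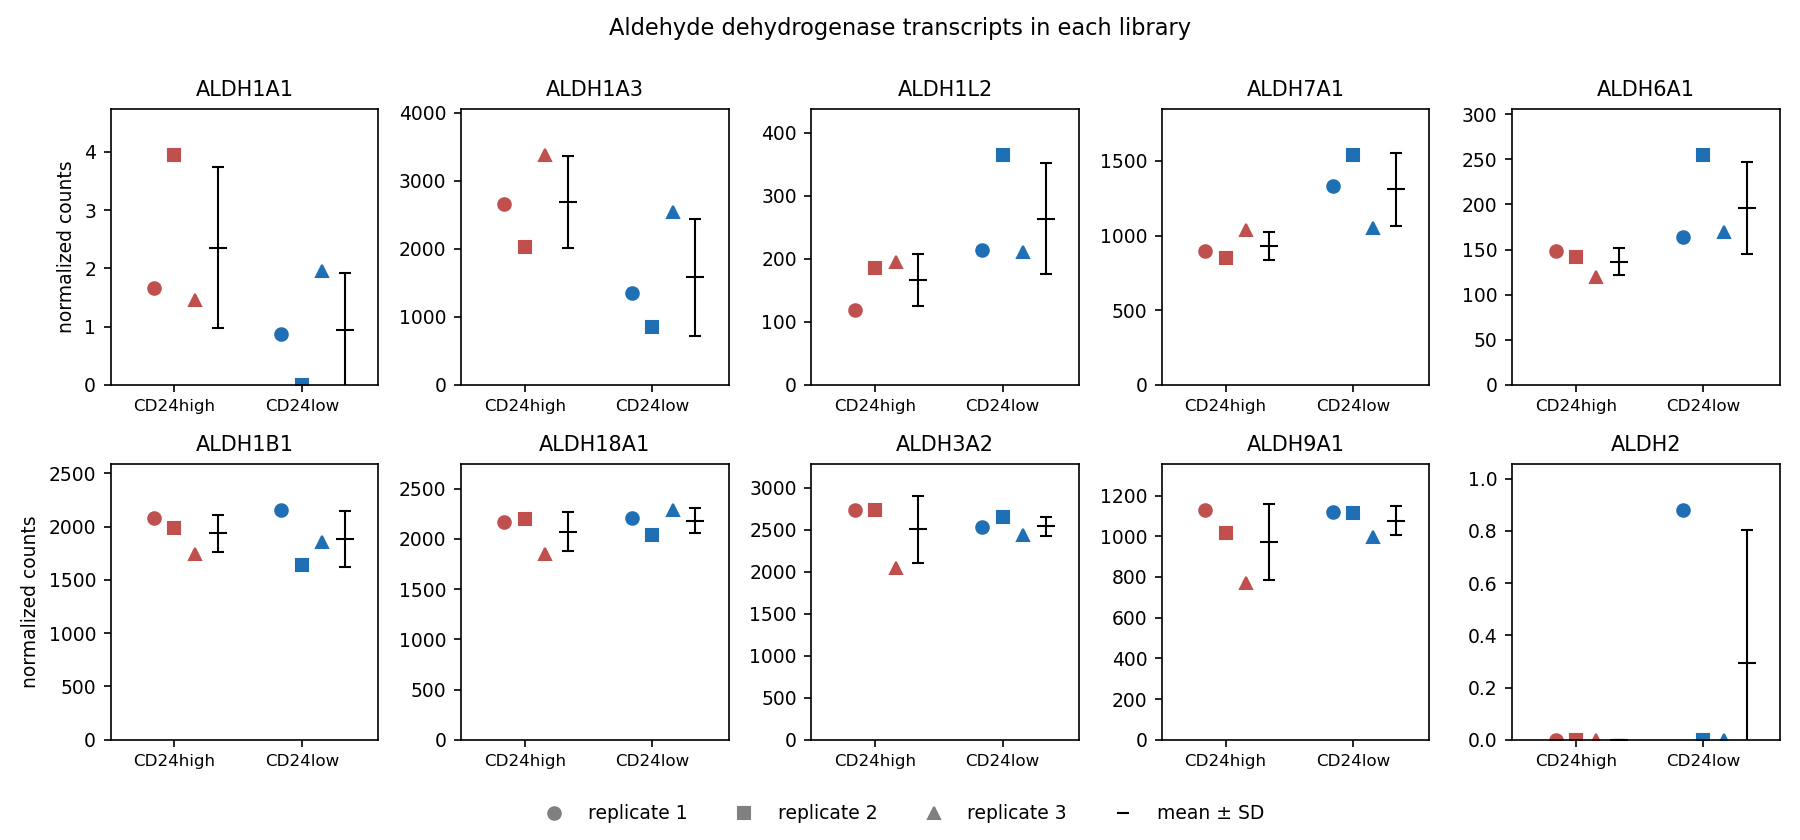
Normalized counts (y axis, a separate linear scale per gene starting at 0) of the 10 members in each library, by fraction (x axis), with the mean and SD of 3 libraries in black. ALDH1A3 is low in CD24low replicates 1 and 2 only. ALDH1L2, ALDH7A1 and ALDH6A1 are higher in every CD24low library than in any CD24high library, as are 10.2% of all tested genes.

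In folate and amino acid breakdown, 3 members had higher values in every CD24low library, by 1.40 to 1.56 fold, and did not pass the test over all genes. Of all tested genes, 10.2% were higher in every CD24low library than in any CD24high library. ALDH7A1 (ENSG00000164904.17, chromosome 5, 126531200 to 126595418, minus strand) oxidises the semialdehyde of lysine breakdown and betaine aldehyde. It had 899, 852 and 1035 normalized counts in CD24high replicates 1, 2 and 3, and 1334, 1541 and 1052 in the CD24low replicates. The groups were separate, but CD24low replicate 3 exceeded CD24high replicate 3 by little. The difference was 0.48 (SE 0.15, 95% interval 0.14 to 0.82, limma adjusted p = 0.23, DESeq2 adjusted p = 0.094), with 0.27 and 0.47 within libraries of low and high rRNA share. Of its 50-base windows 7.12% also occurred in the pseudogene ALDH7A1P1, which had 8.89 to 24.7 normalized counts, 1.04% to 2.05% of those of ALDH7A1.

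ALDH1L2 (ENSG00000136010.13, chromosome 12, 105019784 to 105084577, minus strand) is the mitochondrial formyltetrahydrofolate dehydrogenase, which makes NADPH. It had 119, 186 and 194 normalized counts in CD24high replicates 1, 2 and 3, and 214, 365 and 211 in the CD24low replicates. CD24low replicate 2 stood highest, and the groups did not overlap. The difference was 0.64 (SE 0.26, 95% interval 0.063 to 1.22, limma adjusted p = 0.33, DESeq2 adjusted p = 0.21), 0.50 and 0.52 within libraries of low and high rRNA share, 0.38 without CD24low replicate 2 and 0.42 without CD24high replicate 1. C12orf45, on the opposite strand with 145 shared exonic bases, had 371 to 610 normalized counts.

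ALDH6A1 (ENSG00000119711.12, chromosome 14, 74056850 to 74084493, minus strand) is the methylmalonate semialdehyde dehydrogenase of valine and thymine breakdown. It had 149, 141 and 120 normalized counts in CD24high replicates 1, 2 and 3, and 164, 255 and 169 in the CD24low replicates. Again CD24low replicate 2 stood highest and the groups were separate. The difference was 0.50 (SE 0.20, limma adjusted p = 0.33, DESeq2 adjusted p = 0.31), 0.22 and 0.77 within libraries of low and high rRNA share, and 0.29 without CD24low replicate 2. BBOF1, on the opposite strand with 670 shared exonic bases, had 22.5 to 43.0 normalized counts.

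The other 4 tested members, which are also among the 5 most abundant, had small differences with overlapping groups. ALDH1B1 (chromosome 9, 38392664 to 38398661) had 1939 ± 175 and 1886 ± 260 normalized counts in CD24high and CD24low (SD, n = 3), a difference of -0.045 with a 95% interval of -0.33 to 0.24. ALDH18A1 (chromosome 10, 95605929 to 95656706) had 2069 ± 194 and 2181 ± 126 (0.079, interval -0.17 to 0.33). ALDH3A2 (chromosome 17, 19648136 to 19677598), the gene affected in Sjögren-Larsson syndrome, had 2505 ± 399 and 2539 ± 109 (0.032, interval -0.26 to 0.33). ALDH9A1 (chromosome 1, 165662216 to 165698863) had 971 ± 185 and 1077 ± 69.3 (0.17, interval -0.17 to 0.50), and the difference was 0.0056 without CD24high replicate 3 and 0.28 without CD24high replicate 1. For these 4, limma's adjusted p ran from 0.67 for ALDH9A1 to 0.94 for ALDH3A2, and the intervals leave room for differences of up to 0.50 on the log2 scale. CD24high replicate 3, the shallowest library and the one with the largest rRNA share (10.2%), held the lowest CD24high value of each of them. The part of depth or rRNA share in this was not tested.

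Counted together, 0 of the 8 tested members passed limma's adjusted p of 0.05, where 0.0% of 16047 tested genes did, and 0 passed with DESeq2, where 2.51% did, or with edgeR, where 0.0% did. At an unadjusted limma p below 0.05 there were 4 members, 3 higher and 1 lower in CD24low, where the shares over all genes were 6.34% higher and 7.15% lower. The lower one, ALDH1A3, had an unadjusted p of 0.052 with edgeR and 0.12 with DESeq2. With edgeR the unadjusted p was 0.037 for ALDH1L2, 0.035 for ALDH6A1 and 0.011 for ALDH7A1, and below 0.05 for 14.1% of all genes. The 3 members whose groups did not overlap were all higher in CD24low, where 10.2% of all tested genes were higher and 9.32% lower in that way. The median difference of the 8 was 0.12 and that of all tested genes -0.0066.

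**Figure D3:**
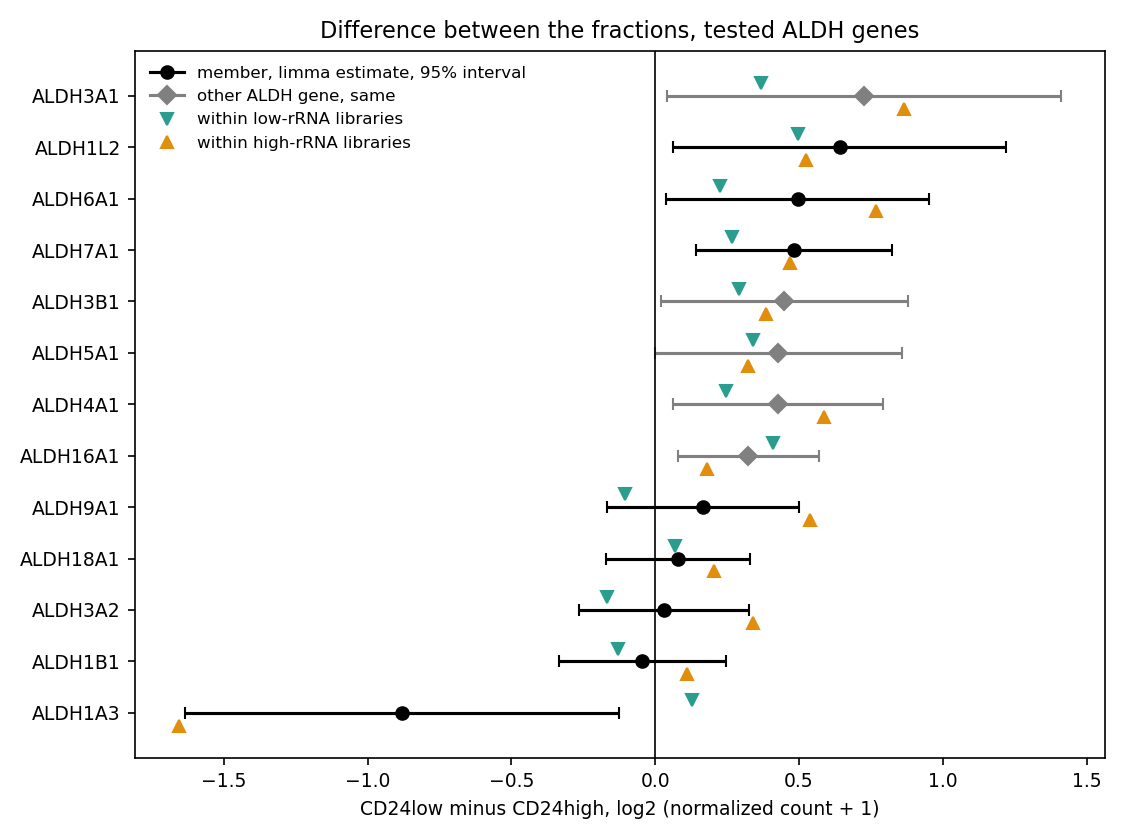
Difference between the fractions (x axis, CD24low minus CD24high in log2 (normalized count + 1)) for the 13 tested ALDH genes (y axis), with limma's 95% interval and the untested values within libraries of low and high rRNA share as triangles. The 5 other ALDH genes and 3 members lie at 0.32 to 0.72, and ALDH1A3 at -0.88 with its within-share values apart at 0.13 and -1.65.

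The 9 ALDH genes outside the members were read in the same fit. Of these, 5 were tested, and all 5 had higher values in every CD24low library (10.2% of all tested genes did), with a median difference of 0.43. With limma 0 passed the adjusted test (smallest adjusted p 0.26), and 0 passed with DESeq2. At an unadjusted limma p below 0.05, 4 were higher in CD24low, where 6.34% of all tested genes were. ALDH16A1, a family member without a known catalytic role, had 761, 745 and 865 normalized counts in CD24high replicates 1, 2 and 3, and 1000, 962 and 1000 in the CD24low replicates (0.32, SE 0.11). ALDH4A1, which completes proline breakdown, had 170 ± 13.8 and 230 ± 34.6 (0.43, SE 0.16), and ALDH5A1, the succinate semialdehyde enzyme of GABA breakdown, had 101 ± 12.9 and 137 ± 23.0 (0.43, SE 0.19). ALDH3A1, a cytosolic enzyme of corneal and stratified epithelia, had 51.1 ± 7.01 and 90.4 ± 42.5 (0.72, SE 0.31), and ALDH3B1, a membrane-bound enzyme of lipid aldehydes, had 294 ± 39.6 and 407 ± 105 (0.45, SE 0.19). Without CD24low replicate 2 these last 2 differences were 0.37 and 0.25. ALDH1A2, the third retinaldehyde enzyme of the ALDH1A class, had 1.76 to 5.93 normalized counts, and ALDH1L1, ALDH3B2 and ALDH8A1 had at most 7.90. Over all 19 genes, 8 of the 13 tested had separate groups, each higher in CD24low, where 10.2% of all tested genes were higher and 9.32% lower in that way.

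Markers of other cell types were read beside these values. Of 8 fibroblast markers, 2 were tested. DCN had 10.2 to 325 normalized counts in CD24high and 846 to 3704 in CD24low, and COL1A1 18.3 to 38.0 and 27.4 to 110, with overlapping groups. The list summed to 52.6 to 359 in CD24high and 887 to 3839 in CD24low, where DCN made up nearly all of it. COL3A1, below the filter, had 0 to 0.83 and 1.76 to 9.55. LUM had 0 reads in all 6 libraries, and COL1A2 and THY1 had at most 1 read in a library. Of 6 leukocyte markers, CD3E, MS4A1 and TYROBP had 0 reads and the list summed to 110 to 140 and 139 to 243; the 5 endothelial markers summed to 92.9 to 400 and 110 to 345. The 8 mammary epithelial markers were all tested, 5 of them lower in every CD24low library, where 9.32% of all tested genes were. They summed to 99881 to 127260 and 69576 to 104081, which overlap. The part of the fibroblast and epithelial lists in the ALDH differences was not tested.

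ALDH1A3 sits in the retinoid pathway, in which retinol is taken up and stored, oxidised to retinaldehyde and then to retinoic acid, which binds nuclear receptors and is broken down by CYP26 enzymes. Of 18 genes of retinoid supply and breakdown, 11 were tested and 0 passed limma's adjusted test. Limma's unadjusted p was below 0.05 for 2 higher and 1 lower, where it was for 6.34% and 7.15% of all genes. DESeq2 called 1 higher and 0 lower, where it called 1.36% and 1.15% of all genes. With separate groups 1 was higher and 2 lower, where 10.2% and 9.32% of all tested genes were. CYP26B1, which breaks down retinoic acid, had 74.7, 53.3 and 61.4 normalized counts in CD24high replicates 1, 2 and 3, and 156, 272 and 99.9 in the CD24low replicates. Every CD24low library lay above every CD24high library, with a difference of 1.36 (SE 0.33, limma adjusted p = 0.15, DESeq2 adjusted p = 0.0028), 0.65 and 1.73 within libraries of low and high rRNA share. LRAT, which stores retinol as its ester, had 1843, 1400 and 1238 against 939, 657 and 1212 normalized counts, lower in each CD24low library (-0.70, SE 0.22, limma adjusted p = 0.23, DESeq2 adjusted p = 0.062). STRA6, a retinol uptake receptor, had 24.9 ± 17.9 and 52.1 ± 25.7 with overlapping groups (1.14, SE 0.50).

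RDH10, a retinol dehydrogenase upstream of the ALDH1A enzymes, averaged 367 ± 38.7 normalized counts among CD24high libraries and 302 ± 42.2 among CD24low libraries. Each CD24low library was lower (-0.28, limma adjusted p = 0.45). The groups nearly met, at 338 in CD24high replicate 3 and 332 in CD24low replicate 3. DHRS3, which returns retinaldehyde to retinol, ran from 91.9 to 549 in CD24high and from 125 to 610 in CD24low, and both number 3 libraries were the highest of their group. Of 9 carriers and receptors, 6 were tested and 0 passed with limma (0 at an unadjusted p below 0.05) or DESeq2: RXRB (0.32), RARA (0.38) and RARG (-0.07) had the smallest p-values. RARG, a retinoic acid receptor of skin and breast epithelium, had 1022 ± 142 and 971 ± 106. The receptor gene RARB, a known retinoic acid target, and the carrier CRABP1 had 0 reads in all 6 libraries.

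**Figure D4:**
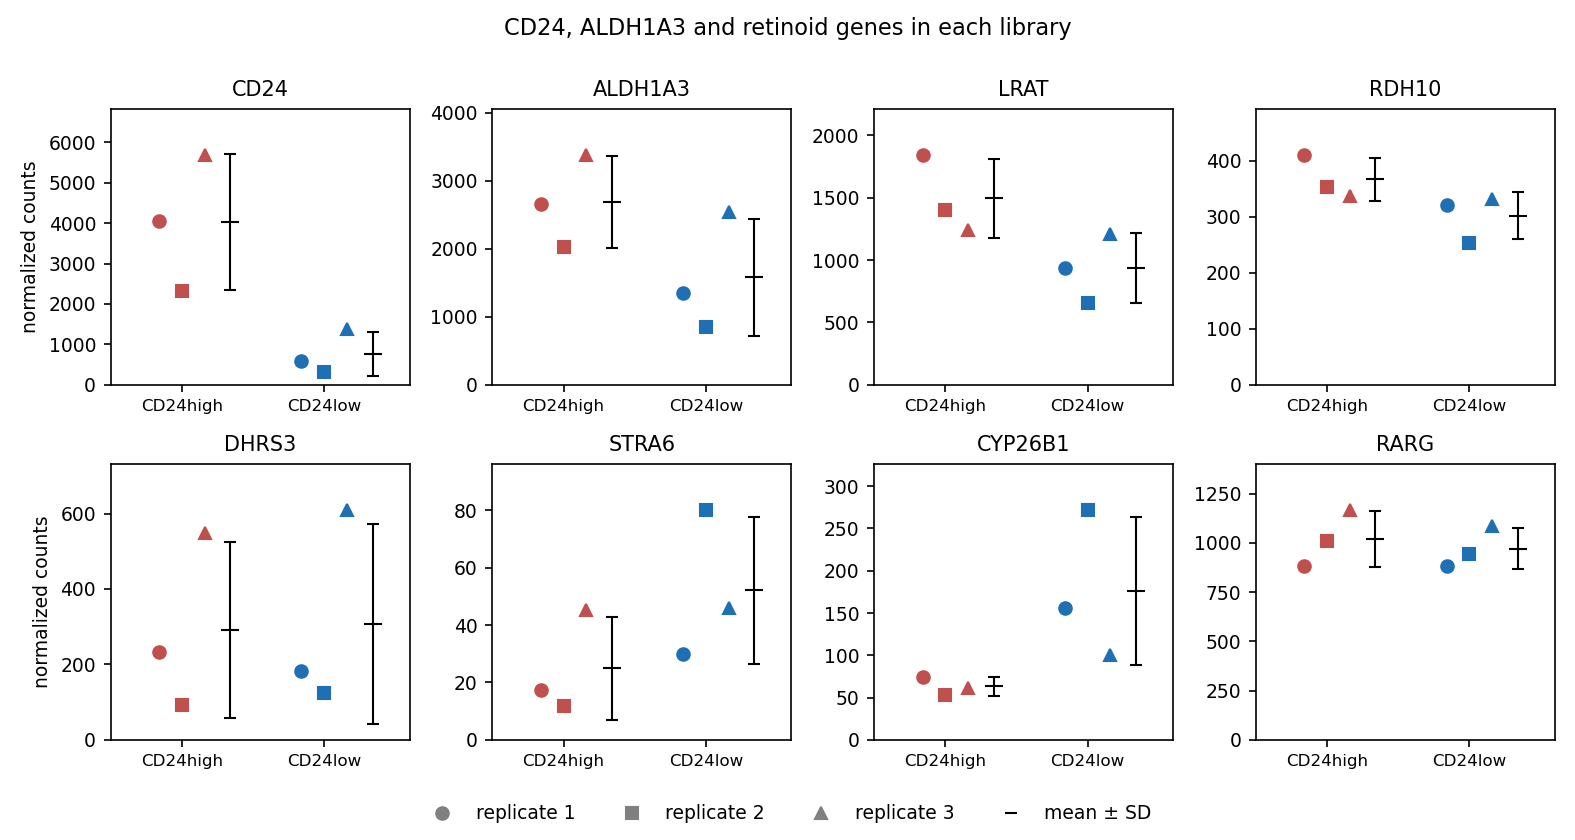
Normalized counts (y axis, a separate linear scale per gene starting at 0) of CD24, ALDH1A3 and 6 retinoid genes in each library, by fraction (x axis), with the mean and SD of 3 libraries in black. CYP26B1 is above 99 in every CD24low library and at most 74.7 in CD24high, and CD24 and LRAT are lower in every CD24low library.

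The pathways of the other members were read in the same way. Of 7 alcohol dehydrogenases, which make the aldehydes that ALDH enzymes use, ADH5 and ADH1B were tested. ADH5, the formaldehyde-clearing form present in all tissues, had 1755 ± 218 and 1808 ± 56.6 normalized counts (0.050, SE 0.12). ADH1B, an alcohol dehydrogenase of liver and connective tissue, had 0 reads in all 3 CD24high libraries, and 4.41, 45.8 and 17.6 normalized counts in the 3 CD24low libraries. Against a floor of 3 reads per CD24high library (2.49 to 4.38 normalized counts) the mean was at least 6.90-fold higher. That bound holds for the mean only, since CD24low replicate 1 lay close to the highest floor. ADH1B passed the filter on low values only through CD24low, so its test is not given.

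Of 14 tested folate one-carbon enzymes around ALDH1L2, 0 passed limma. At an unadjusted limma p below 0.05, 1 was higher, where 6.34% of all tested genes were. DESeq2 called TYMS, the thymidylate synthase, higher (1255 ± 201 and 1829 ± 234, difference 0.55, SE 0.14, DESeq2 adjusted p = 0.036), where it called 1.36% of all tested genes higher. SHMT2, which feeds the mitochondrial folate pool, had a difference of 0.21 (SE 0.10) and GCSH, of glycine cleavage, -0.34 (SE 0.17); the list's median was -0.02. Of 9 tested proline and ornithine genes around ALDH18A1, 0 passed limma. At an unadjusted limma p below 0.05, 1 was higher and 1 lower (6.34% and 7.15% of all tested genes). DESeq2 called 0 higher and 1 lower (1.36% and 1.15% of all tested genes), and the list's median was -0.05. GLUD1, the glutamate dehydrogenase (0.38, SE 0.15), and PYCR1, which makes proline (0.29, SE 0.16), did not pass with either tool.

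Of 18 tested genes of branched-chain amino acid breakdown, the pathway of ALDH6A1, 0 passed with limma or DESeq2, and the median was 0.078. At an unadjusted limma p below 0.05, 1 was higher, where 6.34% of all tested genes were. BCAT2 (0.26), BCKDHA (0.43) and ECHS1 (0.23) had the smallest p-values. Of 7 tested lysine, choline and carnitine genes around ALDH7A1 and ALDH9A1, 0 passed with either tool, nor had any an unadjusted limma p below 0.05. AASS, the first enzyme of lysine breakdown, had 147, 144 and 99.4 against 183, 316 and 136 normalized counts with overlapping groups (0.63, SE 0.29; 0.30 without CD24low replicate 2), and TMLHE (0.25) and SLC22A5 (-0.15) followed. Of 9 tested genes that yield or use fatty aldehydes near ALDH3A2, 0 passed with either tool, 6 had positive differences and the median was 0.084. With all 9 counted, 3 were lower and 0 higher at an unadjusted limma p below 0.05, where 7.15% and 6.34% of all tested genes were. Leaving out CYP4F3, which passed the filter only through CD24high (16.4 ± 7.31 and 5.13 ± 4.17), 2 were lower in every CD24low library, where 9.32% of all tested genes were. These were SGPL1, the sphingosine phosphate lyase (1366 ± 57.6 and 1080 ± 64.5, difference -0.34, SE 0.10), and FAR1, a fatty acyl reductase (2839 ± 649 and 2033 ± 336, difference -0.47, SE 0.18). Of the 76 tested genes of these lists, 3 (ADH1B, CYP4F3 and PRODH) passed the filter through 1 group only. Of the other 73, DESeq2 called 2 higher and 1 lower, where it called 1.36% and 1.15% of all tested genes. With separate groups 8 were higher and 5 lower, where 10.2% and 9.32% of all tested genes were.

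**Figure D5:**
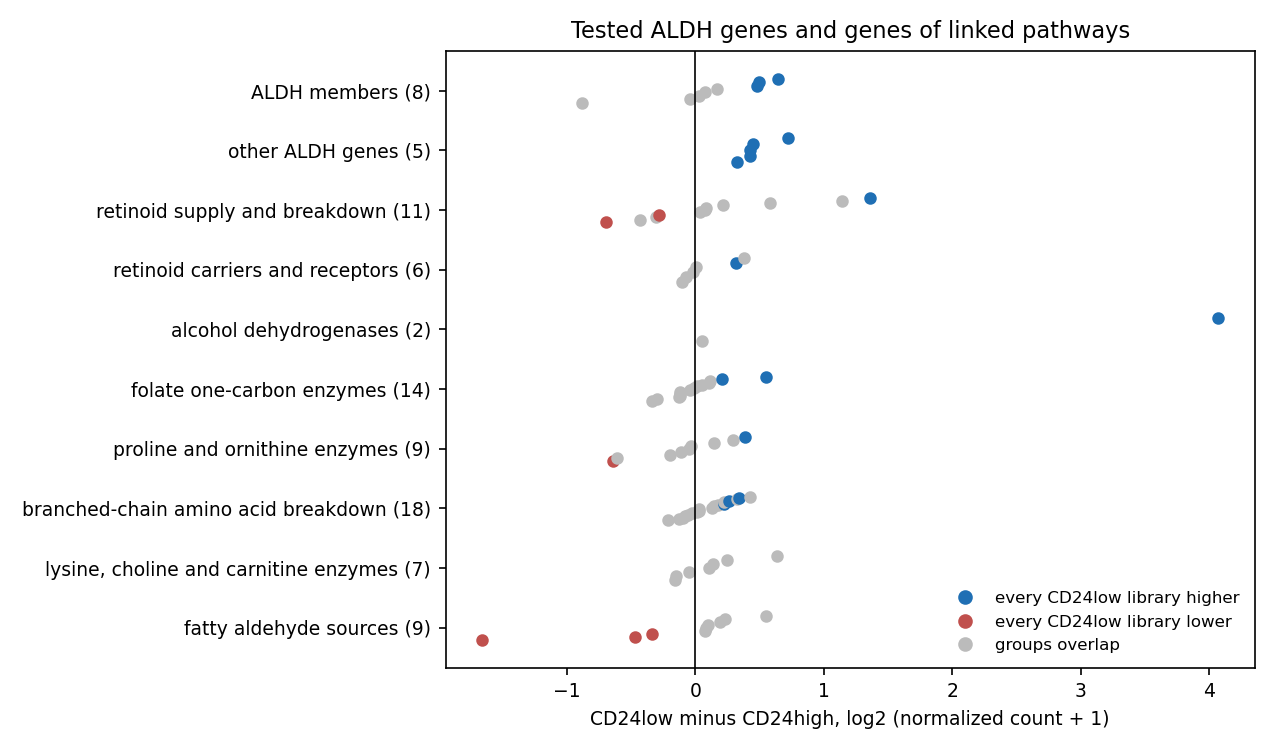
Difference between the fractions (x axis, CD24low minus CD24high in log2 (normalized count + 1)) for each tested gene of the ALDH family and of 8 linked lists (y axis, number tested in brackets), coloured by whether the 3 libraries of each group overlap. All 5 other ALDH genes lie to the right of 0 with separate groups, and ADH1B, with 0 reads in CD24high, is the far right point, whose place depends on the pseudocount.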

How the data were processed

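Gene values came from 6 libraries of MCF10AT1 cells. The authors deposited 1 table whose signal is a normalized count, which the values show to be reads divided by a library factor; the submitters' processing notes name STAR 2.5.2, R 3.5.0, DESeq2 and hg38. Read counter, strand setting and annotation: not given in the sources used here. Dividing each library's values by their smallest step gave whole reads (100% of values within 0.1 reads), on which DESeq2 called 402 genes. Of 58381 IDs, 58261 matched GENCODE 29 without version.

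The main test was limma 3.58.1 (R 4.3.3) (trended prior variance) on log2 (normalized count + 1), two-sided, Benjamini-Hochberg adjusted over 16047 genes with a mean of at least 10 (threshold 0.05). DESeq2 1.42.0 and edgeR 4.0.16 (quasi-likelihood) used the recovered reads. The fits were checked on simulated counts without rRNA or replicate structure, whose planted changes were larger than the members' differences. That check does not cover differences of the members' size. Floors of 3 reads and counts of 0 cover counting error only. Lengths are those of the longest APPRIS principal transcript. Tables were handled in Python 3.11.15 with numpy 2.4.6 and pandas 2.3.3.

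The members and gene lists were chosen with earlier results of these data known. Named genes are the 19 ALDH genes, the 3 genes of smallest p in each list (both tested alcohol dehydrogenases), the 3 genes most like ALDH1A3, sort markers, and overlapping genes or pseudogenes; ALDH1A1 was too low for a search for similar genes. RDH10, DHRS3, RARB, CRABP1, PRODH, EPCAM, DCN and other single markers were named after their values were seen. Some items that the rule names are not reported here. Alternatives were pseudocounts, filters, scalings, no trend, the replicate block, the rRNA split as a covariate and each library left out.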

Additional observations from a re-analysis of the deposited data

How the results depend on the processing

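The count of members that passed, 0, stayed at 0 under 15 of 18 alternatives and was 1, ALDH1A3, without CD24low replicate 3 (0 without each other library) and in both fits, by limma and by edgeR, that had the replicate block. The replicate block gave ALDH1A3 an adjusted p of 0.0050 in limma and 0.0076 in edgeR. The numbers are not known to pair the samples: same-numbered libraries had correlations of deviations of 0.27, 0.30 and 0.051, and 5 of 6 libraries correlated best with their own number, a hint from the data and not from the design. Under the alternatives the adjusted p of ALDH1A3 ran from 0.0050 to 0.65 and its difference from -1.29 to -0.50. Over all genes, 164 of 31231 passed with no filter, 402 with DESeq2, 716 (limma) and 705 (edgeR) under the replicate block, and 366 without CD24low replicate 3 (0 without each other library). Of the linked lists, 1 gene passed with no filter and 1 without CD24low replicate 3 (0 without each other library). By DESeq2 4 passed, and under the replicate block 4 (limma) and 3 (edgeR). LRAT (limma adjusted p = 0.043) and CYP26B1 (0.012) were among the 4 of limma. The counts with no filter, by DESeq2 and in both blocked fits each include 1 alcohol dehydrogenase. By DESeq2 it was ADH1B, which passed the main filter only through CD24low, so its pass is not read as a result. Members near 0 changed sign: ALDH1B1 ran from -0.15 to 0.051 when 1 library was left out (0.0091 without CD24high replicate 1, 0.051 for CD24low replicate 2), ALDH3A2 from -0.11 to 0.10 (-0.11 for CD24high replicate 3, -0.00017 for CD24low replicate 2) and ALDH18A1 from -0.0011 (CD24high replicate 3) to 0.13. ALDH1L2, ALDH6A1 and ALDH7A1 stayed positive and did not pass in all 18. The cause of these shifts was not tested. Depth limits ALDH1A1 and ALDH2, with at most 4 reads in a library.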
